A study of Mus musculus with 3 samples.

Results

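The genes described here are 7 matrix metalloproteinases, Mmp2, Mmp3, Mmp11, Mmp13, Mmp14, Mmp19 and Mmp23, and 3 tissue inhibitors of metalloproteinases, Timp1, Timp2 and Timp3. They were taken by name, and all 10 have a row among the 24698 genes of the merged count table. A gene was compared between groups only where it had at least 20 UMIs (unique molecular identifiers, which count captured transcripts once each) over both groups.

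SCA1+/cKIT- cells were sorted from dissociated testes of adult C57BL/6 males aged 8 to 12 weeks and grown on Matrigel at 100000 cells per well, and the culture was sampled by Drop-seq, a droplet method for single-cell RNA sequencing, on days 4, 7 and 14. All 3 groups shared a recovery of 18 h in serum and an expansion of 3 days with PDGFAA, PDGFBB and FGF2, each at 10 ng/ml, and the hedgehog agonist SAG at 0.5 µM. The later differentiation medium kept these factors and added 5 mM LiCl2 and the Notch pathway inhibitor DAPT at 10 µM. By the authors' account, day 4 followed the expansion, and days 7 and 14 followed 3 and 10 days in differentiation medium. Time and the change of medium therefore cannot be told apart between days 4 and 7. Each day is 1 library with no replicate, so no difference below has a test, and every interval covers counting error only.

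Matrix metalloproteinases are zinc-dependent endopeptidases that cleave collagens, proteoglycans, growth factor carriers and each other's propeptides. Most are made as inactive proenzymes, and the tissue inhibitors bind the active site of the mature enzymes. The membrane protease MMP14, together with TIMP2, is known to bind and activate the MMP2 proenzyme at the cell surface, and such proteases and inhibitors take part in remodelling the matrix around the seminiferous tubules.

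The cells numbered 2980 on day 4, 2171 on day 7 and 973 on day 14, with 12677110, 11627440 and 5324400 UMIs and medians of 2886.5, 3285 and 3272 UMIs per cell. No barcode occurred in more than 1 library. Within a library, 1304, 1026 and 504 columns shared all but the last base of their barcode with another column, so a single cell may stand in several columns. Sums of UMIs do not depend on that, whereas shares of cells do, and shares are also given with such columns summed. Markers of Leydig cells stood at 462, 661 and 13271 CPM (UMIs per 1000000) summed over 12 genes on days 4, 7 and 14. Markers of macrophages, which also make metalloproteinases, summed to 12.5, 29.9 and 243 CPM over 10 genes, and Lyz2 held 1063 of their 1296 UMIs on day 14, where C1qb had none and C1qa had 1. From day 4 to day 14, Fcer1g went from 1.34 to 15.6 CPM, Tyrobp from 0.552 to 9.58 and Cd68 from 0.710 to 8.83. Ptprc, Adgre1 and Cd14 were also higher on day 14 than on day 4, and Csf1r was lower (2.76 and 1.88 CPM). Endothelial markers summed to 91.9, 127 and 36.1 CPM over 8 genes, of which Cdh5 alone gave 77.7, 111 and 22.3 CPM. Egfl7 was highest on day 14 (6.7, 5.3 and 13.3 CPM). Vwf, Tie1 and Cldn5 had no UMI on day 7. On day 14, Pecam1, Flt1, Tie1 and Cldn5 had none, and Vwf and Ptprb had 1 each. Smooth muscle or pericyte markers summed to 64.4, 50.1 and 5.45 CPM over 7 genes, and germ cell markers to 137, 24.3 and 49.2 CPM over 8. Sertoli cell markers summed to 974, 1228 and 2859 CPM over 8 genes and so were highest on day 14 like Mmp2 and Timp2. Ctsl alone gave 903, 1157 and 2767 CPM of these. Gata4 (16.5 and 40.4 CPM), Aard (23.6 and 37.0 CPM) and Cldn11 (0.394 and 2.07 CPM) were also higher on day 14 than on day 4. Sox9 was lower (27.4 and 13.0 CPM), Amh had no UMI on any day, and Dhh and Rhox5 had none on day 14. The part of these cell types in the values below was not tested.

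The stretches of 250 bases before the RefSeq start site (GRCm38.p6) are shown for the most abundant inhibitor, the most abundant protease of day 4, and the 2 proteases that were close to absent. Promoters were given for 8 of the 10 genes, and none was given for Mmp2 and Mmp19. Capitals mark a match to 1 of 3 motifs, the AP-1 motif TGANTCA, which reads the same on both strands, the Sp1 motif GGGCGG on either strand, and TATAAA on the gene's strand. No match overlapped another.
Timp1, chrX:20869916-20870165, plus strand: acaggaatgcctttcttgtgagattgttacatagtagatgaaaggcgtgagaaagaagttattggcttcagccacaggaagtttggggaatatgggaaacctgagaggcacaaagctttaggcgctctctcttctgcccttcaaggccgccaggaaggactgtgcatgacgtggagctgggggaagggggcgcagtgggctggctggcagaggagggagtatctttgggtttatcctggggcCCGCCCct
Mmp14, chr14:54431348-54431597, plus strand: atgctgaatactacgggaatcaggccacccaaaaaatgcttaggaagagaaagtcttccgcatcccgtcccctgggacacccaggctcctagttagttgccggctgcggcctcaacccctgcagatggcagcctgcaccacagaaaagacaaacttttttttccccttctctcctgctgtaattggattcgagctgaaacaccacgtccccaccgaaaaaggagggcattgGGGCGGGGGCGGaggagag
Mmp3, chr9:7445572-7445821, plus strand: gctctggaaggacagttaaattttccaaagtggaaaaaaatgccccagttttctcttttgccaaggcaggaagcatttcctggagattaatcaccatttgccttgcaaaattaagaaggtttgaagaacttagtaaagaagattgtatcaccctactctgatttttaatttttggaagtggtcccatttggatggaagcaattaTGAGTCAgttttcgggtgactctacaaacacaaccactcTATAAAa
Mmp13, chr9:7272264-7272513, plus strand: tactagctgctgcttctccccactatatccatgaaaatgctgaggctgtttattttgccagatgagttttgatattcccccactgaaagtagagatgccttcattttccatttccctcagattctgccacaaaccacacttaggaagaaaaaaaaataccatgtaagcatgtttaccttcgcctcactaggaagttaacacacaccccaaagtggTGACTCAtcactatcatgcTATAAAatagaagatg

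Mmp3 and Mmp13, both on chromosome 9, each held 1 AP-1 match and 1 TATAAA and no Sp1 match. Timp1 held 1 Sp1 match and Mmp14 held 2, with neither of the other motifs. Of the promoters not printed, Mmp11 held 2 Sp1 matches and Timp2 and Timp3 held 1 each. Among 32817 promoter windows of this length, 6.75% held the AP-1 motif, 7.60% TATAAA and 32.7% the Sp1 motif. These matches are descriptions of letters, and no binding was measured.

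Timp1 was the most abundant of the 10 genes on each day. Mmp14 was the most abundant protease on days 4 and 7, and Mmp2 was on day 14. UMIs count captured transcripts without regard to their length, and levels of different genes are set side by side as such counts. Whether capture was equal between genes was not tested. On day 4 the order from high to low was Timp1, Timp3, Timp2, Mmp14, Mmp11, Mmp2, Mmp23, Mmp19, Mmp3 and Mmp13. The 95% Poisson intervals of neighbours in this order did not overlap on day 4. On day 14 the order was Timp1, Timp2, Mmp2, Mmp14, Timp3, Mmp19, Mmp23, Mmp11, Mmp3 and Mmp13, so Mmp2 stood above Mmp14 and Timp3 below both, unlike on day 4. The intervals of Mmp19 and Mmp23 met at 57.6 and 57.3 CPM without overlapping.

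**Figure D1:**
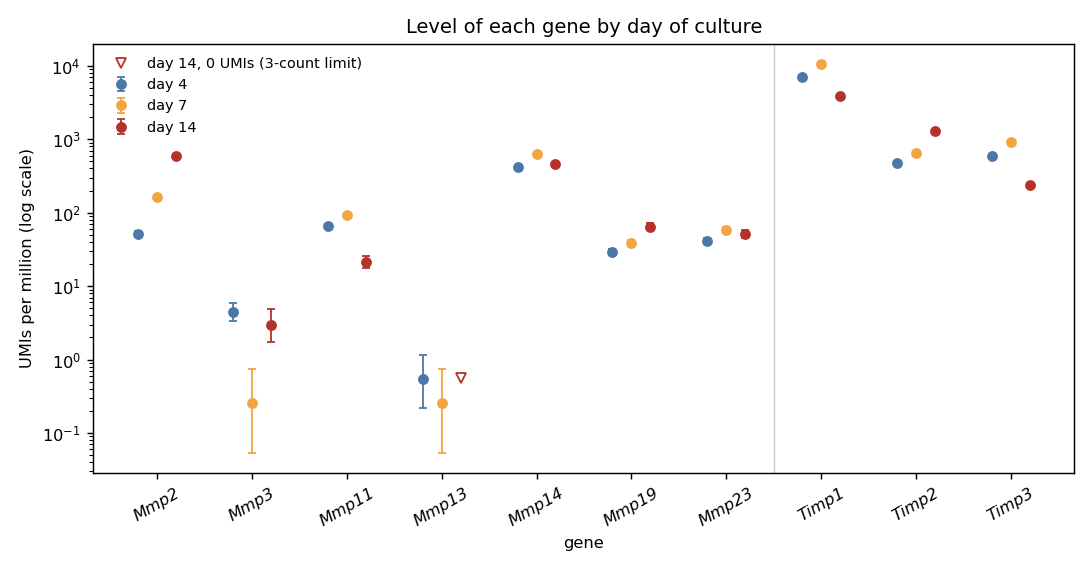
Level of each gene in UMIs per 1000000 on a log axis by day of culture, with 95% Poisson intervals that cover counting error only; the open triangle is the limit of 3 counts for a gene with no UMI. Mmp2 stepped from 51.6 to 166 and 584 CPM, whereas Timp1, Timp3 and Mmp11 were highest on day 7 and lowest on day 14.

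Mmp2, the gelatinase that cleaves basement membrane collagen and denatured collagen (chr8:92827291-92853420, plus strand), had 51.6 CPM on day 4 (47.7 to 55.7), 166 CPM on day 7 (158 to 173) and 584 CPM on day 14 (563 to 605). Its level was therefore higher at each later day, with 654, 1927 and 3108 UMIs behind the values. The ratio of day 7 to day 4 was 3.21 (2.94 to 3.52) and that of day 14 to day 7 was 3.52 (3.33 to 3.73). Set against day 4, day 14 held 11.3 times the level (10.4 to 12.3). By rank among all genes, Mmp2 stood at place 3276, 1138 and 272 on the 3 days.

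Mmp14, the membrane-type protease that activates the MMP2 proenzyme (chr14:54431612-54445364, plus strand), differed far less between days. It had 421 CPM on day 4 (410 to 433), 626 CPM on day 7 (612 to 640) and 463 CPM on day 14 (444 to 481). Day 7 was thus the highest, at 1.49 times day 4 (1.43 to 1.54), and day 14 was at 0.739 times day 7 (0.706 to 0.774). Mmp14 gave 68.6% of all UMIs of the 7 proteases on day 4, 63.6% on day 7 and 39.0% on day 14, while Mmp2 gave 8.41%, 16.8% and 49.2%.

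Mmp11, stromelysin-3, an enzyme known from stromal fibroblasts (chr10:75923222-75936496, minus strand), had 65.5 CPM on day 4 (61.1 to 70.1), 93.8 CPM on day 7 (88.3 to 99.6) and 21.2 CPM on day 14 (17.5 to 25.5). Its level on day 14 was 0.226 times that of day 7 (0.185 to 0.275). The gene overlaps Chchd10 on the opposite strand, which had 6556, 9448 and 2474 UMIs. Mmp19 (chr10:128790910-128800824, plus strand) went the other way, with 29.1, 39.2 and 64.2 CPM, and day 14 held 2.21 times the level of day 4 (1.90 to 2.56). Mmp23 (chr4:155650655-155653384, minus strand), a membrane-anchored member, stayed between 41.3 and 58.8 CPM on all 3 days.

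Mmp3, stromelysin-1 (chr9:7445822-7455975, plus strand), and Mmp13, a collagenase (chr9:7272514-7283331, plus strand), were seen in a handful of cells. The UMIs of Mmp3 numbered 57, 3 and 16 on the successive days, which is 4.50, 0.258 and 3.01 CPM. On day 4, 14 cells held it, and 1 cell held 36 of the 57 UMIs. On day 14 it was spread over 11 cells with at most 3 UMIs in any, 8 of them differentiating Leydig-like. Mmp13 had 7 UMIs on day 4, all in 1 cell, 3 UMIs on day 7, and none on day 14, which allows up to 0.563 CPM.

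Timp1, the secreted inhibitor that also binds the MMP9 proenzyme (chrX:20870166-20874735, plus strand), had 6990 CPM on day 4 (6944 to 7036), 10706 CPM on day 7 (10647 to 10766) and 3918 CPM on day 14 (3865 to 3972). By level it ranked 5, 2 and 13 among all genes of the library on these days. Day 7 stood at 1.53 times day 4 (1.52 to 1.54), and day 14 at 0.366 times day 7 (0.361 to 0.371). Syn1, which it overlaps on the opposite strand, had at most 12 UMIs on any day.

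Timp2, the inhibitor that bridges MMP14 and the MMP2 proenzyme (chr11:118301069-118355740, minus strand), had 479 CPM on day 4 (467 to 492), 653 CPM on day 7 (638 to 667) and 1306 CPM on day 14 (1275 to 1337). It was the only one of the 3 inhibitors whose highest level was on day 14, at 2.72 times day 4 (2.63 to 2.82) and, by its 95% interval, 1.94 to 2.07 times day 7. Timp3, the inhibitor that is held in the matrix (chr10:86300372-86349506, plus strand), had 601 CPM (587 to 614), 905 CPM (888 to 923) and 242 CPM (229 to 255). Its level on day 14 was 0.267 times that of day 7 (0.252 to 0.283). Timp3 overlaps Syn3 on the opposite strand, which had 557, 955 and 127 UMIs, and how the counting used strand is not given in the sources used here.

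A gene was counted as higher or lower between days when log2(CPM + 1) differed by at least a 2-fold ratio. From day 4 to day 7, 1 of 9 genes was higher, Mmp2, against 2.25% of 12954 genes. One gene, Mmp3, was lower, against 2.76% of all genes, and 1 cell held 36 of its 57 UMIs of day 4. The other 7 genes stood at 1.35 times (Mmp19) to 1.53 times (Timp1) their level of day 4, inside the 2-fold lines. The median log2 ratio of the 9 genes was 0.51, beside 0.09 for all genes.

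From day 7 to day 14, 1 of 8 genes was higher, Mmp2 again, where 10.1% of 12656 genes were. Of the 8 genes, 3 were lower (Mmp11, Timp1 and Timp3), where 14.0% of all genes were. Timp2 lay just under the 2-fold line with the added 1 CPM, and over it under 5 alternatives. The median log2 ratio of the 8 genes was -0.32, beside -0.13 for all genes. Both comparisons share the library of day 7.

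**Figure D2:**
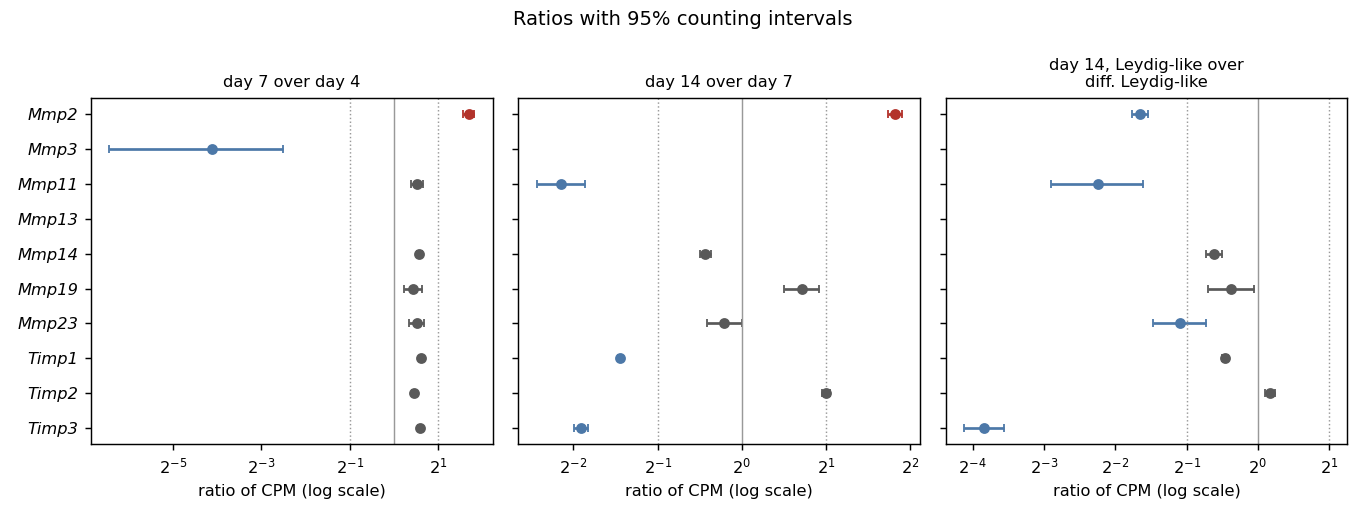
Ratio of CPM for each gene on a log axis, with 95% intervals of the counts, for day 7 over day 4, day 14 over day 7, and Leydig-like over differentiating Leydig-like cells of day 14; red points were counted as higher, blue as lower, dotted lines mark 2-fold, and genes with under 20 UMIs are left out. Mmp2 is the one red point in both day comparisons and a blue point, at 0.317, between the classes of day 14.

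Summed over the 7 proteases, the levels were 614, 984 and 1186 CPM on days 4, 7 and 14. Summed over the 3 inhibitors, they were 8070, 12264 and 5465 CPM. For each protease UMI there were 13.2 inhibitor UMIs on day 4 (12.9 to 13.5), 12.5 on day 7 (12.2 to 12.7) and 4.61 on day 14 (4.49 to 4.74). Timp1 accounted for 86.6%, 87.3% and 71.7% of the inhibitor UMIs. With Timp2 and Timp3 alone, the ratio was 1.76, 1.58 and 1.30, so it was lowest on day 14 with and without Timp1. These are ratios of transcripts, and no protein or enzyme activity was measured.

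**Figure D3:**
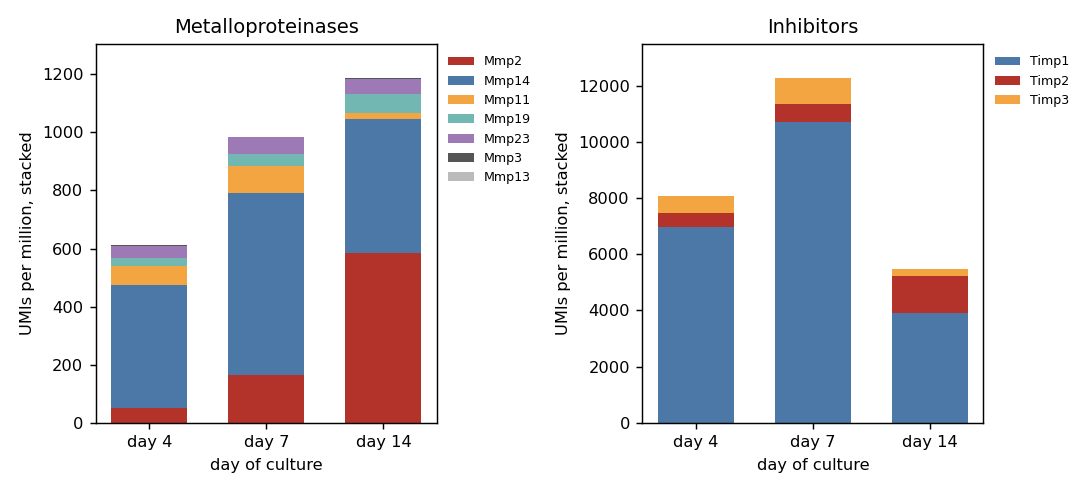
Stacked levels in UMIs per 1000000 of the 7 metalloproteinases (left) and the 3 inhibitors (right) by day, with a separate scale for each panel. Mmp2 takes 8.41%, 16.8% and 49.2% of the protease bars, and Timp1 takes 86.6%, 87.3% and 71.7% of the inhibitor bars.

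The cells were grouped by clustering without the 10 genes and without the other matrix and protease genes listed below, and clusters were named from marker lists. This gave differentiating myofibroblast-like cells (2215 on day 4, 74 on day 7), proliferating progenitor-like cells (401 and 250, with 7 on day 14), ECM myofibroblast-like cells (1280 on day 7), differentiating Leydig-like cells (52, 54 and 538) and Leydig-like cells (414 on day 14). A further 786 cells stayed unnamed. Groups under 50 cells were not used. The day and the class were largely the same split, so a difference between days and one between classes cannot be told apart except within a class or a day.

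**Figure D4:**
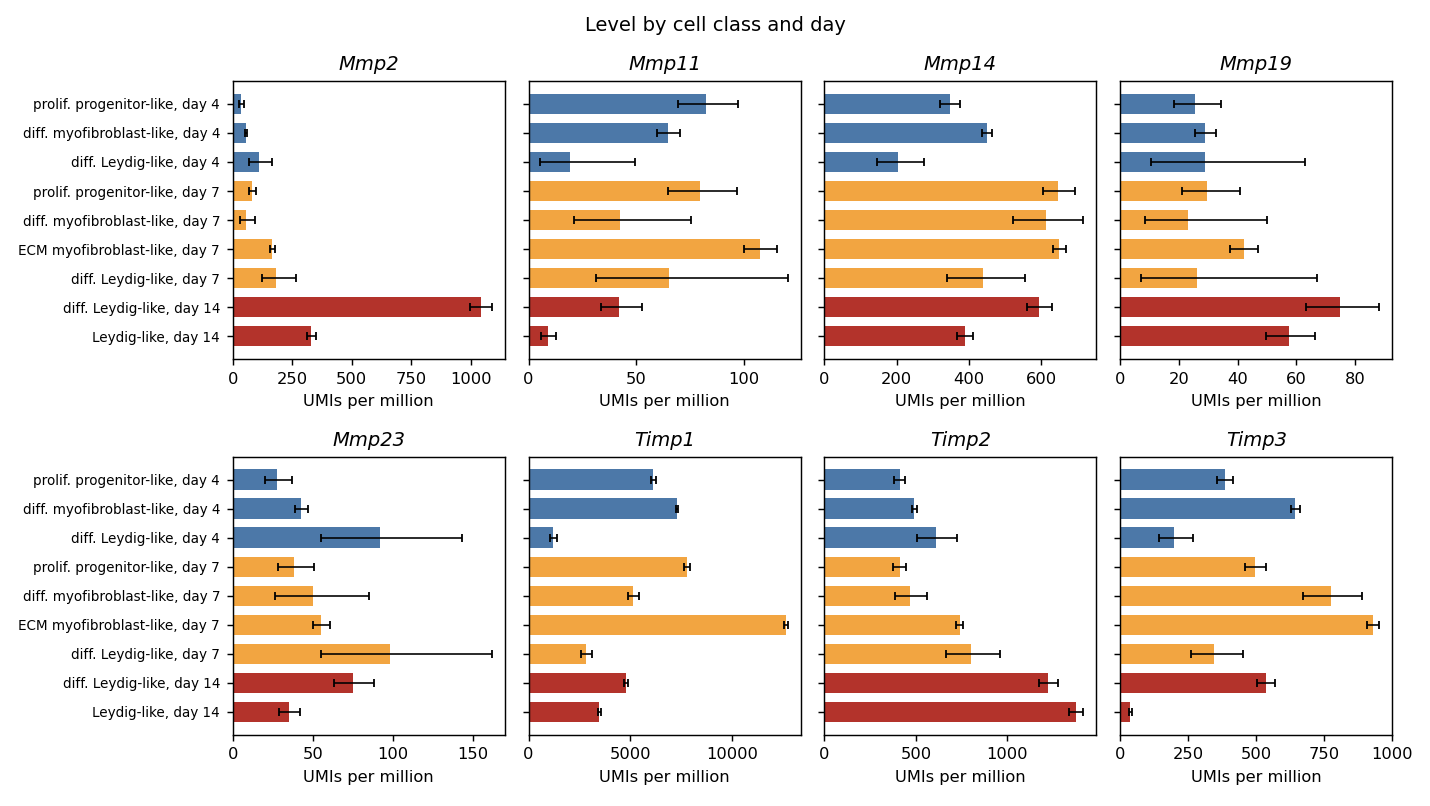
Level in UMIs per 1000000 of the 8 genes with over 100 UMIs in the 9 groups of class and day with at least 50 cells, with 95% Poisson intervals; blue is day 4, orange day 7 and red day 14. Mmp2 peaks in differentiating Leydig-like cells of day 14 at 1042 CPM, Timp1 in ECM myofibroblast-like cells of day 7 at 12644 CPM, and Timp3 is lowest in Leydig-like cells at 37.5 CPM.

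Within day 14, Leydig-like cells held less of several of these genes than differentiating Leydig-like cells. None of 8 genes was at least 2-fold higher in Leydig-like cells, where 4.03% of 10243 genes were, and 4 were at least 2-fold lower, where 5.81% were. Of the other lists given below, 10 of 16 matrix substrates, 4 of 7 ADAMTS proteases and 2 of 3 other inhibitors were also lower. So were 2 of 9 activation and clearance partners, 0 of 8 ADAM proteases and 0 of 2 further metalloproteinases. Nothing particular to the 10 genes is drawn from their count. Timp3 had 37.5 CPM in Leydig-like cells (31.2 to 44.8) and 536 CPM in differentiating Leydig-like cells (504 to 570), a ratio of 0.0700 (0.0575 to 0.0845). Mmp2 had 331 CPM (311 to 351) and 1042 CPM (997 to 1089), a ratio of 0.317 (0.295 to 0.342). The intervals of the classes were far apart for both genes, within a single library.

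Mmp11 had 8.92 CPM in Leydig-like and 42.2 CPM in differentiating Leydig-like cells, and Mmp23 had 35.1 and 75.0 CPM. Mmp14, at 388 and 595 CPM, Mmp19, at 57.5 and 75.0 CPM, and Timp1, at 3472 and 4776 CPM, were lower by less than 2-fold. Timp2 was the one gene of the 8 with a higher level in Leydig-like cells, 1375 CPM (1335 to 1416) against 1225 CPM (1176 to 1275), a ratio of 1.12 (1.07 to 1.18). Leydig-like cells had 5.95 inhibitor UMIs per protease UMI and differentiating Leydig-like cells had 3.56. The classes also differed in depth, with medians of 5575.5 and 2185 UMIs per cell on that day. After cells were thinned to 1500 UMIs, Mmp2, Mmp11 and Timp3 stayed at least 2-fold lower and Mmp23 did not, with a log2 ratio of -0.74.

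Mmp2, though left out of the clustering, was the fourth of the 10 leading genes of the differentiating Leydig-like cluster. In that class it had 111 CPM on day 4 (70.4 to 167), 183 CPM on day 7 (122 to 264) and 1042 CPM on day 14, from 23, 28 and 2002 UMIs. The ratio of day 14 to day 7 was 5.70 (3.93 to 8.60). The ratio of day 7 to day 4 was 1.65, with an interval that included 1 (0.914 to 2.99). All 3 inhibitors were also highest on day 14 in this class, with 609, 803 and 1225 CPM for Timp2, 1222, 2848 and 4776 CPM for Timp1, and 198, 346 and 536 CPM for Timp3. For Timp1 and Timp3 the ratio of day 14 to day 7 was thus above 1 in this class, 1.68 (1.52 to 1.85) and 1.55 (1.18 to 2.08), where it was 0.366 and 0.267 over all cells. Neither held in every grouping, as the ratios were 0.846 and 0.408 with clustering at resolution 0.4 and 0.714 and 0.251 with classes assigned cell by cell. The class had 4.47, 4.90 and 3.56 inhibitor UMIs per protease UMI on days 4, 7 and 14. In proliferating progenitor-like cells, Mmp2 had 36.1 CPM on day 4 and 82.6 CPM on day 7, a ratio of 2.29 (1.66 to 3.19), which was 3.94 with cells thinned to 1500 UMIs and 3.55 with equal weight per cell. In differentiating myofibroblast-like cells it had 54.5 and 57.6 CPM on these days, a ratio of 1.06 (0.587 to 1.76). Across the alternative groupings its ratio of day 14 to day 7 in differentiating Leydig-like cells ran from 2.43 to 5.72. The ratio of day 7 to day 4 for Mmp2 in that class ran from 1.60 to 4.50. The 52 and 54 cells of the earlier days were not a stable group, since the alternatives put between 1 and 87 cells of day 4 and between 17 and 243 cells of day 7 there. The differentiating myofibroblast-like class was not stable either, with between 733 and 2219 cells of day 4 and between 11 and 142 of day 7 under the alternatives. With 30 principal components, 1785 cells of day 4 stayed unnamed, and at resolution 1.2, 802 cells of day 4 were named germ cell-like.

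On day 7, ECM myofibroblast-like cells, the class led by genes such as Ltbp2 and Grem1, had the highest level of Timp1. It had 12644 CPM there (12563 to 12726), 7778 CPM in proliferating progenitor-like cells (7626 to 7932), 5149 CPM in differentiating myofibroblast-like cells (4877 to 5432) and 2848 CPM in differentiating Leydig-like cells (2587 to 3128). The intervals of these 4 classes did not overlap. The ECM class joins clusters of unlike depth, with medians of 1761.5 and 8131.5 UMIs on day 7, and Timp1 stood at 11709 and 12836 CPM in them.

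Against proliferating progenitor-like cells of day 7, 1 of 8 genes was at least 2-fold higher in ECM myofibroblast-like cells, Mmp2 at 2.02 times (1.66 to 2.49), where 5.55% of 11125 genes were. None was at least 2-fold lower, where 5.41% were. Timp3 at 1.87 times (1.73 to 2.03), Timp2 at 1.80 times (1.64 to 1.97) and Timp1 at 1.63 times (1.59 to 1.66) lay under the line, and Mmp14 was level, at 650 and 647 CPM. Against the 54 differentiating Leydig-like cells, 2 of 8 genes were higher, Timp1 at 4.44 times (4.04 to 4.89) and Timp3 at 2.69 times (2.06 to 3.60), where 26.2% of 10814 genes were. None was lower, where 12.0% were. The Timp3 difference did not hold. Its log2 ratio was -0.51 with a clustering at resolution 0.4 and -0.60 with classes assigned cell by cell, and the log2 ratio of Timp1 under these was 1.18 and 0.97.

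On day 4, differentiating myofibroblast-like and proliferating progenitor-like cells differed by less than 2-fold in these genes. None of 8 genes was higher, where 3.91% of 11313 genes were, and none was lower, where 5.10% were. Their ratios ran from 0.789 for Mmp11 (0.655 to 0.955) to 1.68 for Timp3 (1.55 to 1.82). Within the differentiating myofibroblast-like class, 2 clusters of day 4 differed in Timp3 and Mmp2. The cluster led by Ifitm1 and F3 had 5476 CPM of Timp1, 811 CPM of Timp3 and 82.2 CPM of Mmp2, while the cluster led by Ifi27l2a and Zbp1 had 5815, 550 and 47.2 CPM. Interferon-induced genes were among the 10 leading genes of both, and their median depths were 4960 and 1241.5 UMIs in the order given. Neither cluster had a marker of the differentiating myofibroblast-like list among its 10 leading genes.

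Among the unnamed cells, a cluster of day 7 led by Eln, Mfap4 and Cilp, genes of elastic fibres and matrix, stood apart. Its 248 cells of that day had 1652 CPM of Timp3 (1574 to 1733), the highest level of that gene among clusters and days with at least 50 cells, and 407 CPM of Mmp2 (369 to 449). Timp1 there was 5593 CPM (5449 to 5740), under that of the ECM myofibroblast-like cells of the same day. Mmp2 in ECM myofibroblast-like cells of that day stood at 167 CPM (158 to 177). Another unnamed cluster, led by Lyz2 and S-phase genes such as Ccne2 and Rrm2, held 44 of the 57 Mmp3 UMIs of day 4 in 3 cells. The marker list closest to the Eln cluster was that of interstitial progenitors, with 5 of 10 markers raised. For the Lyz2 cluster it was that of proliferating progenitors, with 9 of 12 raised.

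The share of cells with a UMI was computed after each cell had been thinned to 1500 UMIs, which left 2227, 1742 and 794 cells and left out 753, 429 and 179 shallower ones. Mmp2 was found in 6.51% of cells on day 4 (5.52 to 7.62), 18.0% on day 7 (16.2 to 19.9) and 40.7% on day 14 (37.2 to 44.2). Timp3 was found in 40.2% (38.1 to 42.3), 54.1% (51.8 to 56.5) and 15.5% (13.0 to 18.2). The shares of both genes therefore followed their levels. Timp2 went from 47.8% and 56.1% to 82.2%, Mmp14 from 43.8% and 57.5% to 46.5%, and Mmp11 from 8.85% and 12.6% to 2.77%. Timp1 was found in 94.1%, 99.1% and 92.9%.

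Without thinning, Mmp2 was found in 13.6%, 33.5% and 61.6% of cells and Timp3 in 52.4%, 68.8% and 24.8%. With the columns that share their first 11 barcode bases summed, the thinned shares of Mmp2 were 7.30%, 18.1% and 42.3%, and those of Timp3 were 40.9%, 53.2% and 17.2%. By class on day 14, thinned Timp3 was found in 4.73% of Leydig-like cells (2.87 to 7.28) and 25.7% of differentiating Leydig-like cells (21.4 to 30.5). No class that should lack these genes was at hand to read the share that free RNA gives, and barcodes outside the cell filter held the same genes except Mmp13.

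**Figure D5:**
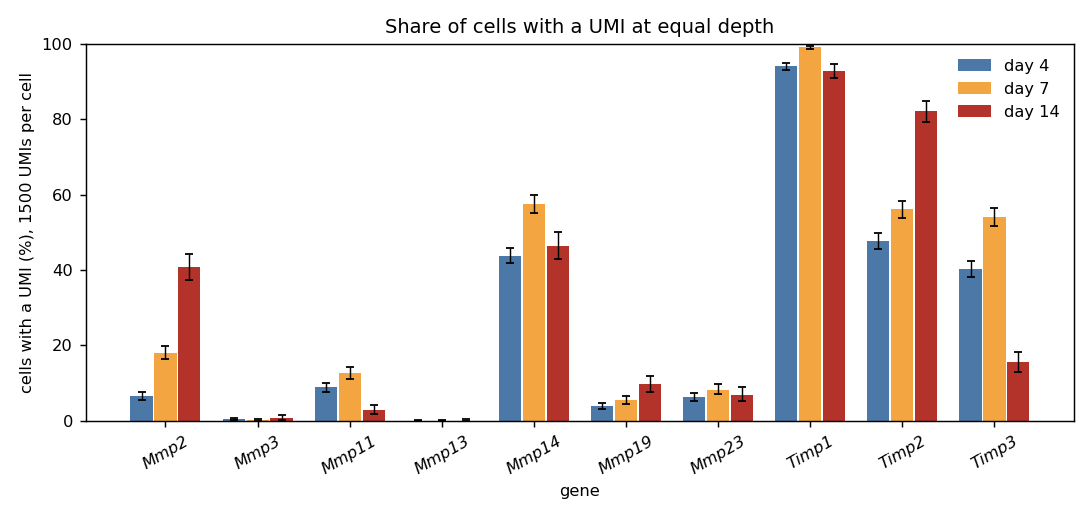
Share of cells with at least 1 UMI of each gene after thinning every cell to 1500 UMIs, in percent, by day, with 95% Clopper-Pearson intervals. Mmp2 goes from 6.51% to 40.7% of cells, Timp2 reaches 82.2%, and Timp3 ends at 15.5% on day 14.

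On day 14, 323 thinned cells held Mmp2, of which 185 also held Mmp14 and 271 also held Timp2. Mmp14 was found in 57.3% of cells with Mmp2 and 39.1% of those without, and Timp2 in 83.9% and 81.1%. These cells mix 2 classes that differ in Mmp2 and Mmp14, and within each class the gap for Mmp14 was smaller. It was found in 46.4% and 31.7% of Leydig-like cells with and without Mmp2, and in 63.6% and 52.1% of differentiating Leydig-like cells. The UMIs of Timp3 on that day were the most unevenly spread of the inhibitors, with 32.3% of them in the 10 cells that held most, against 12.1% for Timp1 and 7.58% for Timp2.

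Over the 9 groups of class and day, which share 3 libraries, the closest pairs among the 8 genes other than Mmp3 and Mmp13 were Mmp2 with Timp2 (Pearson r = 0.91), Mmp2 with Mmp19 (0.89), Mmp11 with Timp3 (0.86) and Mmp19 with Timp2 (0.85). These correlations of log2(CPM + 1) are descriptions over 9 points that are not independent. Of 6187 genes with a mean of at least 20 CPM, the most similar to Mmp2 were Psap, Fbxo18 and Npc2 (0.96, 0.95 and 0.94), where Psap and Npc2 encode lysosomal lipid-handling proteins. The most similar to Timp2 were Aga, Aebp1 and Htatip2 (0.99, 0.98 and 0.98). For Timp3 they were Adamts12, Adcy7 and Fn1 (0.97, 0.96 and 0.95), for Timp1 Gadd45a, Pla2g4a and Vasn (0.97, 0.96 and 0.95), and for Mmp14 Lrrc8c, Mrc2 and Vps26b (0.93, 0.92 and 0.91). For Mmp11 they were Zfp36l2, Akap13 and Cnot4 (0.97, 0.94 and 0.93), for Mmp19 Ace, Colgalt1 and Gm9385 (0.93, 0.92 and 0.92), and for Mmp23 S100b, C1s1 and Cyba (0.97, 0.97 and 0.96).

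The other genes of the pathway were listed by family. For their counts, the shares over all genes were 2.25% higher and 2.76% lower between days 4 and 7. Between days 7 and 14 they were 10.1% and 14.0%. Of 16 further metalloproteinases, 6, Mmp9 among them, had no row in the merged count table. Of the 10 others, 5 had at least 20 UMIs over the 3 days, all far below Mmp2 and Mmp14. Mmp16 had 8.44, 9.20 and 5.07 CPM, Mmp28 had 1.89, 2.06 and 2.25 CPM, Mmp17 had 1.81, 1.72 and 0 CPM, and Mmp10 had 0.394, 1.81 and 0 CPM. Mmp27 stood at 9.39 CPM on day 14, from 50 UMIs, beside 6 UMIs on day 4 and 2 on day 7. Between days 4 and 7, 1 of 4, Mmp10, was higher and none lower (median log2 0.10), and between days 7 and 14, 1 of 5, Mmp27, was higher and 2, Mmp10 and Mmp17, were lower (median -0.75). Timp4 had no UMI on any day.

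Of the other inhibitors and related genes, none of 3 passed the 2-fold line between days 4 and 7 (median log2 -0.08). Between days 7 and 14, Pcolce, which enhances procollagen processing and is thus no protease inhibitor, went from 773 to 1841 CPM, and Tfpi2, a serine protease inhibitor, from 41.4 to 6.95 CPM (median of the 3, -0.47). Of 12 ADAMTS proteases compared between days 4 and 7, 1 was higher, Adamts8 (9.15 to 34.3 CPM), and 1 was lower, Adamts9 (24.6 to 6.62 CPM), with a median of -0.01. Of 11 between days 7 and 14, 1 was higher, Adamts5, an aggrecanase (168 to 420 CPM), and 5 were lower, with a median of -0.54. These were Adamts8 (34.3 to 1.13 CPM), Adamts12 (67.8 to 25.7 CPM), Adamts4 (9.72 to 0.563 CPM), Adamts6 (8.26 to 3.38 CPM) and Adamts14 (3.44 to 0.563 CPM). Of 9 ADAM proteases, none passed the line in the first interval (median 0.12), and in the second 1 was higher, Adam8 (0.774 to 25.7 CPM), and 3 were lower, Adam19 (60.9 to 18.8 CPM), Adam9 (124 to 58.8 CPM) and Adam33 (13.8 to 2.63 CPM), with a median of 0.13.

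Of 10 genes whose products activate, anchor or clear metalloproteinases, none was higher and 2 were lower between days 4 and 7, Plau, which encodes urokinase (32.3 to 15.5 CPM), and Itgb3 (3.79 to 1.03 CPM), with a median of 0.17. Between days 7 and 14, 2 were higher, the proprotein convertase Pcsk6 (0.258 to 37.2 CPM) and Bsg (700 to 1588 CPM), and 3 were lower, Cd44, a surface anchor of MMP14 (238 to 13.9 CPM), Itgav (176 to 40.0 CPM) and Plaur, the urokinase receptor (16.7 to 1.69 CPM), with a median of -0.59. Of 16 matrix substrates, none passed the line between days 4 and 7 (median 0.10). Between days 7 and 14, 1 was higher, Dcn, which encodes the proteoglycan decorin (368 to 964 CPM), and 6 were lower, with Vcan (178 to 28.5 CPM), Fbn1 (812 to 211 CPM), Fn1 (384 to 107 CPM) and Lamc1 (104 to 32.9 CPM) differing most, and a median of -0.48. The list medians of the second interval stood beside -0.13 for all genes, and nothing particular to a list is drawn from them or from the counts.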

How the data were processed

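RNA of single cells was measured by Drop-seq in 1 library per day. The authors aligned the reads to GRCm38 and counted UMIs per gene and barcode with Drop-seq tools, and the deposited values are raw counts without normalization. The submitters' processing notes list STAR 2.5.2a, Picard 2.6.0 and SAMtools 1.2. In the authors' merged table, barcodes under 500 genes or above 10% mitochondrial UMIs are left out, and its counts for 6124 cells matched the tables per day in every entry. A further 495 columns of the merged table belong to no sample used here.

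Counts were summed per day or class and divided by total UMIs (CPM, per 1000000). Intervals at 95% are exact Poisson for levels, conditional binomial for ratios and Clopper-Pearson for shares, and a 0 allows 3 counts. Depth ran from 594 to 80524 UMIs per cell. Genes with at least 20 UMIs over both groups were compared as log2(CPM + 1). No p-value was computed, since cells are not replicates. Cells were clustered with Seurat 5.3.0 (2000 variable genes, 20 principal components, 20 neighbours, resolution 0.8), and a cluster was named from the marker list with the highest median ratio if at least 3 markers were raised 1.5 times. It stayed unnamed where another list had more markers among its 10 leading genes. The same held where the median log2 ratio was not above 0, or where a cluster of low depth had no marker of its list among those 10. Doublets were not removed, because Scrublet called 3 of 6124 cells. The text names all 10 genes, the 3 most similar genes of each with at least 100 UMIs, further metalloproteinases with at least 20 UMIs, and of other lists up to 4 genes per comparison past 2-fold with at least 20 CPM on either side. Members and lists were chosen with earlier results of these data known. Genes outside this rule that make up a count of 5 or fewer, and leading genes of clusters, were chosen after their values were seen. Positions come from GENCODE M21 and promoters from RefSeq. One cluster of the differentiating myofibroblast-like class is not reported here by itself. The ratio step was tested on simulated data. Alternatives included cell filters, doublet scores, weighting, edgeR 4.0.16 TMM factors, size factors, thinning, clustering settings, pseudocounts and minimum counts. Python 3.11.15, numpy 2.4.6, scipy 1.17.1, pandas 2.3.3 and R 4.3.3 were used.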

Additional observations from a re-analysis of the deposited data

Results flagged for a closer look

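The barcodes outside the cell filter, 320 on day 4, 229 on day 7 and 327 on day 14, entered no comparison above. Mmp13 had no UMI in them on any day and Mmp3 had none on day 7, while the other genes were present on each day. Summed, the 10 genes stood at 6754, 11127 and 5240 CPM on the successive days, beside 8683, 13248 and 6651 CPM in the kept cells. The order of the days was the same in both sets. Mmp2 in these barcodes had 80.9, 175 and 363 CPM from 13, 21 and 45 UMIs.

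Timp1 differed between days in opposite directions in different classes. Its ratio of day 7 to day 4 was 2.33 (1.99 to 2.73) in differentiating Leydig-like cells and 1.27 (1.24 to 1.31) in proliferating progenitor-like cells, and 0.704 (0.667 to 0.743) in differentiating myofibroblast-like cells. The difference between the classes was not tested, since each day is 1 library. The first and last of these rest on 54 and 74 cells of day 7, and with classes assigned cell by cell the ratios were 1.27, 1.33 and 0.995.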

How the results depend on the processing

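No paired analysis was possible because each day is 1 library and the result comes from no test. Depth limited Mmp3 and Mmp13, with under 20 UMIs in most comparisons. Of 118 values of counts and medians under alternatives, 96 stayed within 1.5 times the count or 0.1 of the median log2. Between days 7 and 14, the number higher was 2 with no cell filter and with no minimum of UMIs (Mmp3 beside Mmp2), and 2 with a stricter cell filter, without the 6% of cells with the highest Scrublet scores, with equal weight per cell, with median-of-ratios size factors and with cells thinned to 1500 UMIs (Timp2 beside Mmp2). Between days 4 and 7, the number lower was 0 with cells thinned to 1500 UMIs, where Mmp3 had under 20 UMIs and was not compared. That number was also 0 with a pseudocount of 5 CPM. The median log2 ratio between these days was 0.41 with median-of-ratios size factors, which moved the median of all genes from 0.09 to -0.0043. Mmp2, Mmp11, Timp1 and Timp3 kept their direction and their side of the 2-fold line between days 7 and 14 under all 10 alternatives. For Leydig-like against differentiating Leydig-like cells of day 14, the number lower was 4 under 6 alternatives and 3, without Mmp23, with cells thinned to 1500 UMIs and with equal weight per cell. In the other class comparisons, on day 4 the number lower was 1 (Mmp3) with clustering at resolution 0.4 and with members and listed genes kept in the clustering, and the number higher was 1 with cells thinned to 1500 UMIs (Mmp2) and with equal weight per cell (Timp3). On day 7, ECM myofibroblast-like against proliferating progenitor-like cells had 0 higher with members and listed genes kept in the clustering, with classes assigned cell by cell and with cells thinned to 1500 UMIs, and 2 without the 6% of cells with the highest Scrublet scores. Against differentiating Leydig-like cells, 1 was higher and 1 (Mmp2) lower with clustering at resolution 0.4, and 0 were higher and 1 (Mmp2) lower with classes assigned cell by cell, with log2 ratios of Timp3 of -0.51 and -0.60. With 30 principal components, with members and listed genes kept, and with thinning, that class had under 50 cells of day 7 and gave no value. The inhibitor UMIs per protease UMI ran from 13.0 to 13.2, 11.3 to 12.6 and 4.43 to 4.66 on days 4, 7 and 14. Alternatives without Timp1 in the total and with barcodes summed were chosen after seeing the data. The cause of these differences was not tested.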
